A study of Mus musculus with 4 samples.

Results

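The miRNA content of Tlr3+/+ mouse small intestine was compared between tissue taken 6 hr after irradiation and non-treated tissue taken at 0 hr. Both groups carried intact Tlr3, the gene for an innate immune receptor of double-stranded RNA, and they differed by a total body dose of 10 Gy of gamma-rays. Each group was 1 pool of RNA from 3 mice on 1 one-colour array, so no value has a replicate, no test was possible, and precision is limited by the number of arrays. A second pair of arrays, from Tlr3-/- mice that lack this receptor, had the same treatments and times and is used here beside the first. The strain, sex and age of the mice were not stated in the labels.

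The miRNAs described are the mouse probes with a bright signal on at least 1 of the 2 Tlr3+/+ arrays, meaning a raw intensity above 3 times the detection threshold (the mean of the blank spots plus 2 SD). The limit was 77.3 at 0 hr and 78.2 at 6 hr. Of 1096 mouse probes, 122 passed it. Of these, 104 were bright on both arrays, 13 at 6 hr alone and 5 at 0 hr alone. The latter 2 sets lay entirely above and entirely below a ratio of 0 on the log2 scale, a direction that the choice itself favours. Just inside the limit were miR-1247* (raw 54.9 at 0 hr and 79.2 at 6 hr), miR-744 (51.4 and 80.0) and miR-346* (57.5 and 80.3). Just outside were miR-3096b-3p (76.9 and 69.2), miR-5132 (58.5 and 77.4) and miR-3072 (76.1 and 74.7). Names omit the species prefix, and an asterisk marks the star strand in the array's naming, the arm of the hairpin that was taken for the less abundant one.

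MiRNAs are short RNAs that are cut from hairpin precursors and loaded into Argonaute proteins. They guide these proteins to messenger RNAs, mainly through the seed, bases 2 to 8 of the mature strand, so miRNAs of equal seed can share targets. The small intestine is lined by a rapidly renewing epithelium whose crypt cells are among the most radiation-sensitive cells of the body. After gamma-irradiation these cells undergo p53-dependent apoptosis within hours, and TLR3 has been linked to their later loss through RNA released from dying cells.

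The 12 miRNAs with at least a 2-fold higher normalized signal at 6 hr are the centre of the comparison, and their mature sequences follow in descending order of ratio. Capitals mark the seed. The sequences and positions are those of RefSeq (GRCm38.p6), all read 5′ to 3′.
miR-92b*, chr3:89227165-89227188, minus strand: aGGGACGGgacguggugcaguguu
miR-2861, chr2:32712819-32712837, minus strand: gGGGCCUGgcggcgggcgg
miR-326*, chr7:99552288-99552311, plus strand, within Arrb1: gGGGGCAGggccuuugugaaggcg
miR-2137, chrX:72992113-72992133, plus strand, within Zfp185: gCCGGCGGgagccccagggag
miR-5126, chr1:84695890-84695911, plus strand, within Dner: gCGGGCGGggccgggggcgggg
miR-3473, chrX:162874920-162874937, minus strand, within Syap1: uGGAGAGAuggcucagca
miR-762, chr7:127708534-127708555, plus strand, within Bcl7c: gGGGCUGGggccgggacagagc
miR-3102*, chr7:100882388-100882409, minus strand, within Arhgef17: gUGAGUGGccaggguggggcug
miR-451, chr11:78073186-78073207, plus strand: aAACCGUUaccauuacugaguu
miR-3090*, chr2:133564722-133564742, plus strand: gUCUGGGUggggccugagauc
miR-3077*, chr14:57798424-57798448, plus strand, within Sap18: cUGCGGACgggugggcgggcaggcc
miR-5128, chr2:37688212-37688234, minus strand, within Strbp: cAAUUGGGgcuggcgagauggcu
A gene is named where the mature sequence lies between the ends of a protein-coding gene, without regard to strand, exon or intron. No seed occurs more than once among the 12.

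The array design limits what these values can show. No label states the slide. If the deposited array names hold slide names, which was not checked, both non-treated arrays lay on 1 slide and the irradiated arrays on 2 others. In that case the slide cannot be told apart from the treatment. No non-treated intestine was measured at 6 hr, so time and irradiation cannot be told apart either. The label of the tissue was borne out by its markers: miR-194, miR-215 and miR-192, abundant in intestinal epithelium, were among the 10 brightest miRNAs, while 0 of the listed miRNAs of striated muscle, pancreas and liver, or neurons was bright. The genotype labels could not be checked, since Tlr3 mRNA was not measured. Blank spots averaged 24.5 and 24.7 on the Tlr3+/+ arrays, and 779 and 778 mouse miRNAs were detected. Repeated spots of the spike controls within an array had an SD of 0.148 on the log2 scale for a difference between 2 single spots. These spots are bright, and this technical spread leaves out that between mice, pools, labellings and arrays and that of dim probes. In bulk tissue, fewer cells of a type and less of a miRNA per cell cannot be told apart.

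Irradiated Tlr3+/+ intestine had 12 bright miRNAs at least 2-fold above the non-treated pool and 0 as far below it. Of the 12, 10 were bright on both arrays. The other 2, miR-3473 and miR-451, were bright at 6 hr alone, so the choice itself favoured their direction. All 12 come from the 680 mouse miRNAs detected on both arrays, with 1.76% of those higher by at least 2-fold and 0.0% lower by as much. The other 558 detected miRNAs, all dimmer, gave 0 in either direction, and for dim probes the offset used in the background correction shrinks ratios. At a limit of 1.5-fold, 20 bright miRNAs were higher (2.94% of those detected were) and 2 were lower (0.441%), miR-21 and miR-143. Of the 20, miR-195, miR-5122 and miR-5130 were also bright at 6 hr alone. The few large differences thus lay on the high side, while 82 of the 122 had ratios below 0, 36 above and 4 at exactly 0. The median ratio was -0.20 on the log2 scale (quartiles -0.29 and 0.29), against -0.01 over all detected miRNAs. Before any normalization, 74 of the 122 had a lower raw intensity at 6 hr and 48 a higher one, of which 20 were higher by 2-fold or more, and 0 of the former was lower by as much.

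**Figure D1:**
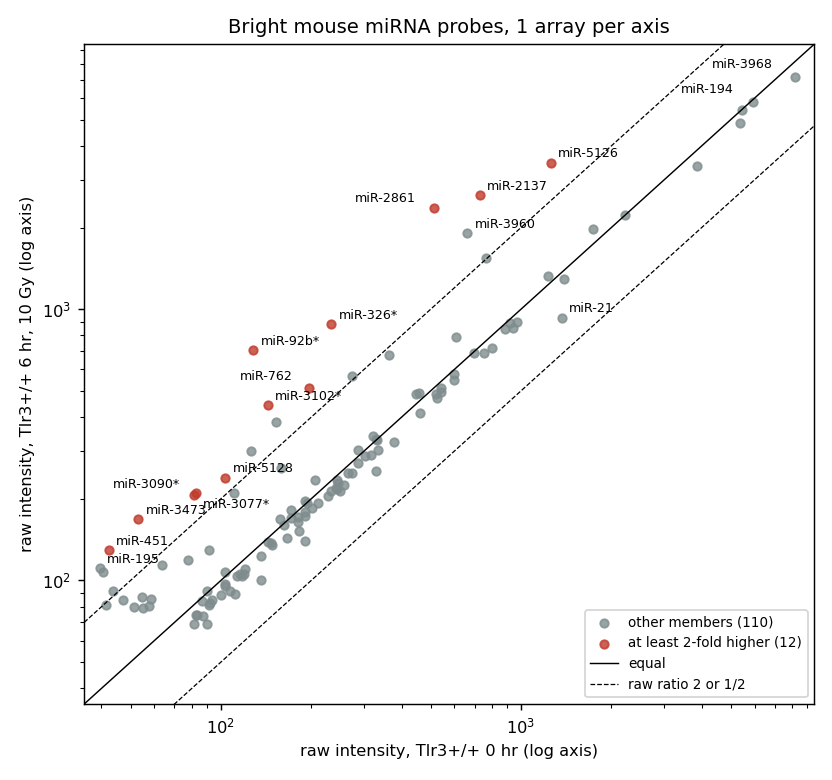
Raw intensity of the 122 bright mouse miRNA probes on the Tlr3+/+ array at 0 hr (horizontal, log axis) and at 6 hr after 10 Gy (vertical, log axis), 1 point per probe and 1 array per axis. The 12 miRNAs at least 2-fold higher after normalization are in red and lie above the upper dashed line, a raw ratio of 2, while no point lies below the lower one.

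miR-92b* had the highest ratio. It is the opposite arm of miR-92b, a paralog of miR-92a outside the miR-17-92 cluster. Its raw intensity was 128 at 0 hr and 705 at 6 hr, and the normalized ratio was 4.16-fold (log2 2.06). In 5 other scalings of the arrays the log2 ratio lay between 2.11 and 2.22. In Tlr3-/- intestine the same probe read 168 and 421, a log2 ratio of 1.09. The 2 irradiated pools were therefore the 2 higher ones of the 4.

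miR-2861 was next, a GC-rich miRNA that was described in mouse osteoblasts, where it acts on the histone deacetylase Hdac5. Its raw intensity was 514 at 0 hr and 2369 at 6 hr (log2 1.71, and 1.97 to 2.12 in other scalings). The Tlr3-/- pools read 653 and 1663 (log2 1.20). miR-3960, a miRNA that has been described as transcribed together with miR-2861, moved from 662 to 1902 in raw intensity. Its quantile-normalized ratio of 0.96 was just under 2-fold, against 1.30 to 1.46 in the 5 other scalings, all of which placed it above 2-fold. Its Tlr3-/- readings were 918 and 1330 (log2 0.35).

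miR-326*, the opposite arm of miR-326 in the gene of beta-arrestin 1, read 233 at 0 hr and 879 at 6 hr (log2 1.70, other scalings 1.66 to 1.77). In Tlr3-/- intestine it read 347 and 622, with a ratio of 0.59. The non-treated Tlr3-/- pool was the brighter of the 2 non-treated pools and the irradiated one the dimmer of the 2 irradiated pools. A further 3 star strands were among the 12: miR-3102* went from 143 to 443 (log2 1.16, others 1.33 to 1.45), miR-3090* from 82.5 to 209 (1.05, others 0.98 to 1.09) and miR-3077* from 81.5 to 206 (1.03, others 0.97 to 1.08). The last 2 were near the 2-fold limit and fell under it in 1 of the 5 other scalings. Their Tlr3-/- ratios were 0.68, 0.57 and 0.21.

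Among the brightest miRNAs of the tissue, miR-5126, miR-2137 and miR-2861 were the members with at least 2-fold higher signal. miR-5126, whose mature sequence holds G and C alone, read 1257 at 0 hr and 3469 at 6 hr (log2 1.24, others 1.22 to 1.41). miR-2137 read 727 and 2630 (log2 1.45, others 1.62 to 1.79). In the Tlr3-/- pools miR-5126 read 1377 and 2660 (0.76), and miR-2137 read 940 and 1972 (0.66). For both miRNAs, as for miR-762, the 2 irradiated pools exceeded the 2 non-treated ones. miR-762 read 196 and 514 in Tlr3+/+ (log2 1.19, others 1.14 to 1.25) and 236 and 308 in Tlr3-/- (0.27).

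miR-3473, miR-3473b and miR-5128 share a run of 9 bases, GAGAUGGCU, in their mature strands. It is shown here in capitals because the 3 had nearly equal values in both genotypes.
miR-3473: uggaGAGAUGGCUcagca
miR-3473b, chr10:41670774-41670793, plus strand, within Ccdc162: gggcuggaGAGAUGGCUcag
miR-5128: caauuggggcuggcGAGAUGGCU
The run was searched in the sense of the mature RNA and occurs in 4 of 1679 mature mouse sequences of the RefSeq table (0.238%), and miR-3473 and miR-3473b share 16 bases, UGGAGAGAUGGCUCAG. Raw intensities of miR-3473 were 53.1 at 0 hr and 168 at 6 hr in Tlr3+/+, and 52.4 and 141 in Tlr3-/-. miR-3473b read 153 and 385 in Tlr3+/+, and 145 and 404 in Tlr3-/-. miR-5128 read 103 and 239 in Tlr3+/+, and 105 and 238 in Tlr3-/-. Each of the 3 was thus higher in both irradiated pools, and the 2 non-treated pools lay close together. The log2 ratios were 1.20, 0.95 and 1.01 in Tlr3+/+, and 0.95, 1.19 and 0.91 in Tlr3-/-. For the dim miR-3473 the Tlr3+/+ ratio was 1.52 to 2.14 with an offset of 16, no background correction, blank subtraction or the authors' values. miR-5128 passed 2-fold in 1 of the 5 other scalings in Tlr3+/+ (0.89 to 1.00), miR-3473b in all 5 (1.06 to 1.17). How far the probes of these related sequences read one another's RNA was not tested.

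**Figure D2:**
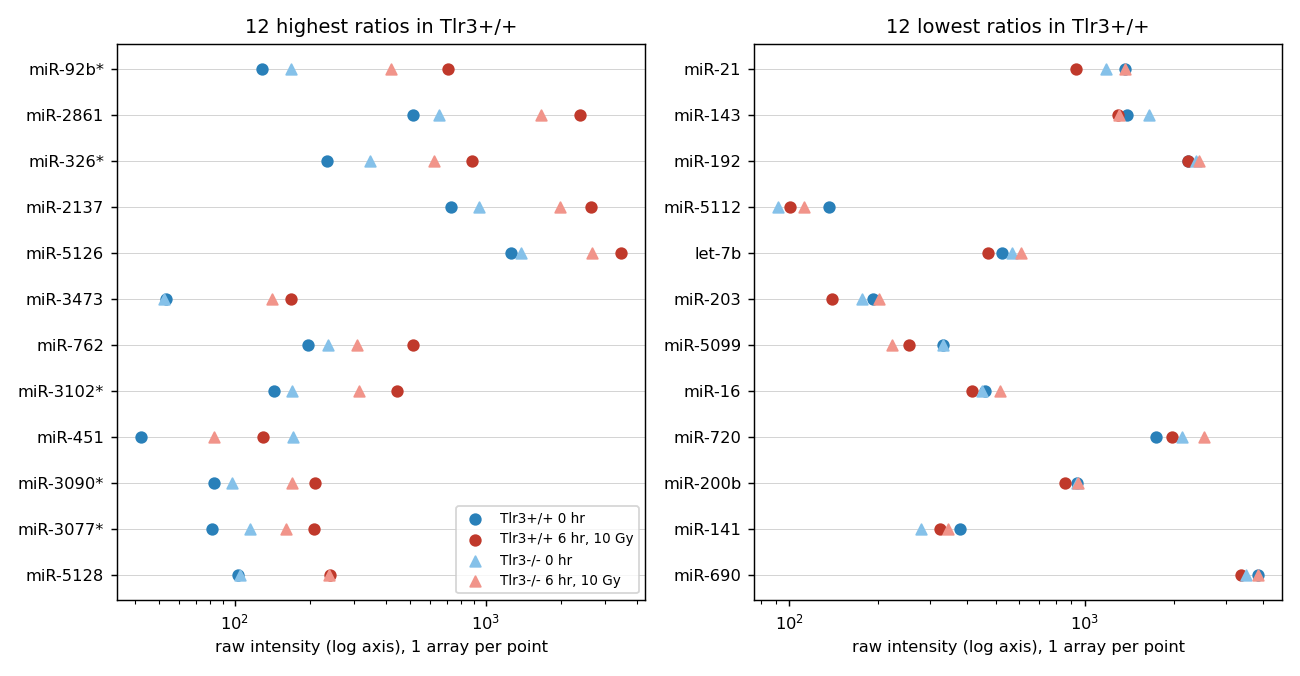
Raw intensity on a log axis for the 12 miRNAs with the highest (left) and the 12 with the lowest (right) log2 ratio in Tlr3+/+ intestine, 1 point per array: circles Tlr3+/+, triangles Tlr3-/-, blue 0 hr and red 6 hr after 10 Gy. On the left, both irradiated pools lie to the right of both non-treated pools for every miRNA except miR-451; on the right, the 4 points lie close together.

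miR-451 differed from the rest of the 12. It is the main miRNA of red cells, is cut by Ago2 in place of Dicer and is transcribed with miR-144. Its raw intensity was 42.3 at 0 hr and 129 at 6 hr in Tlr3+/+ intestine (log2 1.10, others 1.05 to 1.21), and 171 and 82.7 in Tlr3-/- intestine (-0.94). The highest of the 4 pools was thus the non-treated Tlr3-/- pool, and the irradiated pools lay between the non-treated ones. Among the other listed red cell miRNAs, miR-486* read 38.5 and 69.7 in Tlr3+/+ (log2 0.50). The probe shared by miR-486 and miR-3107 read 30.7 and 34.4 (0.04), and miR-144 read 26.6 and 25.2, at the detection threshold. In Tlr3-/- intestine these probes read 40.3 and 60.2, 33.4 and 38.5, and 26.7 and 29.5, with blank spots averaging 24.9 and 27.3. The summed raw intensity of the 4 probes was 138 and 258 in Tlr3+/+, and 271 and 211 in Tlr3-/-. The lower sum in irradiated Tlr3-/- intestine came from miR-451 alone. The part of blood content in the miR-451 values was not tested.

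miR-195, which stood just under 2-fold in the main normalization, was also lowest in the non-treated Tlr3+/+ pool. It belongs to the miR-15/16 family, which restrains cyclins and Bcl2 and whose shared seed is in capitals here.
miR-195, chr11:70235062-70235082, plus strand: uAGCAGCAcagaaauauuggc
miR-497, chr11:70234730-70234751, plus strand: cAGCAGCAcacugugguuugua
miR-15a, chr14:61632075-61632096, minus strand: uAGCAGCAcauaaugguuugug
miR-15b, chr3:69009775-69009796, plus strand: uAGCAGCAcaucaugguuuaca
miR-16, chr3:69009918-69009939, plus strand, with a second copy on chromosome 14: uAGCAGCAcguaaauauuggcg
miR-195 read 39.6 at 0 hr and 111 at 6 hr in Tlr3+/+ (log2 0.99, others 0.92 to 1.08), and 143 and 146 in Tlr3-/- (-0.14, others -0.06 to 0.15). Its low value in non-treated Tlr3+/+ intestine stood apart from the other 3 pools. With an offset of 16, no background correction, blank subtraction or the authors' values, the Tlr3+/+ ratio of miR-195 was 1.36 to 2.31. miR-497, encoded beside miR-195, read 91.1 and 81.4 in Tlr3+/+ (-0.26) and 88.7 and 90.2 in Tlr3-/-. The ratios of miR-15b, miR-15a and miR-16 in Tlr3+/+ were -0.31, -0.38 and -0.53. In the main normalization the 5 members of equal seed therefore held 1 ratio near 2-fold and 4 below 0.

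Below 2-fold, the next members were again mostly star strands and miRNAs numbered late in the database. miR-5122 read 40.5 and 107.2 (log2 0.95, but 2.22 after blank subtraction), miR-211* 126 and 299 (0.92) and miR-328* 274 and 565 (0.91). miR-711 (0.71) and miR-5130 (0.68) completed the 20 that were at least 1.5-fold higher. miR-5109 read 765 and 1543, which gave 0.48 after quantile normalization and 0.81 to 0.96 in the other scalings. In the upper range of the signal few probes lie near each other and a quantile-normalized value follows the probe's rank, so raw intensities and the other scalings are printed beside the highest and lowest ratios. Of the 12 members at 2-fold, 9 passed in all 6 scalings, 17 members passed in at least 1, and 0 was 2-fold lower in any.

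**Figure D3:**
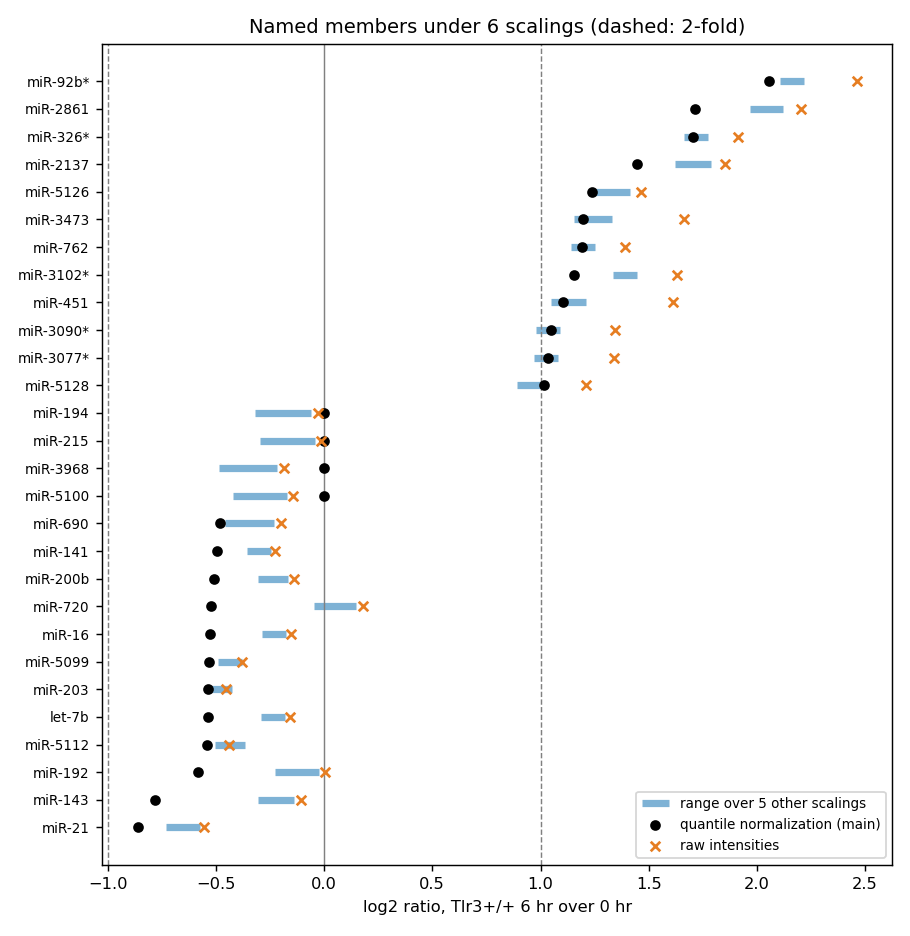
Log2 ratio of Tlr3+/+ 6 hr over 0 hr (horizontal) for the 12 highest, the 12 lowest and the brightest members, with the quantile-normalized value (black), the range over 5 other scalings (blue bar) and the ratio of raw intensities (orange cross); dashed lines mark 2-fold. The 12 upper miRNAs stay near or beyond 2-fold throughout, while miR-143 (-0.78) and miR-192 (-0.58) lie nearer to 0 in the other scalings.

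On the low side, miR-21 had the lowest ratio. This miRNA, encoded at the end of Vmp1, is induced by STAT3 and NF-kB in other settings and represses pro-apoptotic and tumour suppressor genes such as Pdcd4.
miR-21, chr11:86584120-86584141, minus strand: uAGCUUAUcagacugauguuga
Its raw intensity was 1365 at 0 hr and 930 at 6 hr in Tlr3+/+ intestine (log2 -0.86, others -0.73 to -0.57). In Tlr3-/- intestine it read 1183 and 1371 (-0.23, others 0.06 to 0.34). The irradiated Tlr3+/+ pool was the lowest of the 4, and the sign of the Tlr3-/- ratio depended on the scaling. miR-203, a miRNA of epithelial differentiation, read 191 and 140 in Tlr3+/+ (-0.54, others -0.54 to -0.42) and 177 and 201 in Tlr3-/- (-0.06, others 0.08 to 0.29). miR-5099 was lower in both irradiated pools, with 330 and 254 in Tlr3+/+ (-0.53, others -0.49 to -0.38) and 331 and 223 in Tlr3-/- (-0.76). miR-5112 read 136 and 100.6 in Tlr3+/+ (-0.54, others -0.50 to -0.37) and 91.4 and 112 in Tlr3-/- (0.21).

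The remaining low ratios shrank when the scaling was changed. miR-143, a smooth muscle miRNA, read 1389 and 1289, a difference that became -0.78 after quantile normalization and -0.30 to -0.14 in the other scalings. miR-720, a name later withdrawn from the miRNA database, read 1738 and 1970.5, and its ratio of -0.52 became -0.05 to 0.15. For let-7b (523 and 470, ratio -0.54), miR-16 (460 and 414, -0.53) and miR-200b (941 and 854, -0.51) the other scalings gave values from -0.31 to -0.17. miR-141, of the miR-200 family, read 379 and 323 (-0.50, others -0.36 to -0.24), and miR-690 read 3866 and 3364 (-0.48, others -0.46 to -0.23). None of the 12 lowest was 2-fold lower even in raw intensity. In Tlr3-/- intestine 7 of the 12 lay below 0 and 3 at exactly 0, with a median of -0.07.

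The brightest of the listed epithelial miRNAs, miR-194, miR-215 and miR-192, had nearly equal raw readings at 0 and 6 hr. miR-192 and miR-215 share a seed and are transcribed with the 2 copies of miR-194, and all 3 are abundant in intestinal epithelium.
miR-192, chr19:6264857-6264877, plus strand: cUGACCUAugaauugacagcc
miR-215, chr1:185313610-185313630, plus strand, within Iars2: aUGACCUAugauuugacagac
miR-194, chr1:185313325-185313346, plus strand, within Iars2, with a second copy on chromosome 19: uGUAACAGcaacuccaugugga
miR-194 read 5941 at 0 hr and 5822 at 6 hr, miR-215 read 5461 and 5412, and miR-192 read 2224 and 2233. Quantile normalization put miR-194 and miR-215 at exactly 0 and miR-192 at -0.58, and the other scalings gave -0.32 to -0.06, -0.30 to -0.04 and -0.22 to -0.03. The Tlr3-/- ratios were 0.22, 0.15 and -0.46. miR-3968, the brightest probe, read 8182 and 7193 (other scalings -0.48 to -0.22), and miR-5100 read 5350 and 4849 (-0.42 to -0.17). Both had the same rank on the 2 arrays, hence a quantile-normalized ratio of 0.

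Members listed as p53-responsive were not higher at 6 hr. Of 18 such miRNAs on the array 13 were bright, of which 11 had a ratio below 0 and 0 above, with a median of -0.38 (-0.27 to -0.13 in other scalings). That median is to be read against -0.20 for all 122 (-0.20 to -0.09 in the other scalings). With scaling to the median of the bright probes the 2 medians were -0.24 and -0.20. The list overlaps the epithelial one, since it holds miR-192, miR-194 and miR-215, which p53 induces in human cells. miR-34a, the best known direct p53 target, was no bright miRNA: it read 34.2 at 0 hr and 34.7 at 6 hr in Tlr3+/+ (log2 -0.04). The same probe read 35.1 and 45.2 in Tlr3-/- intestine, where blank spots averaged 24.9 and 27.3. In Tlr3-/- intestine the 13 had a median of -0.09, with 10 below 0.

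Listed epithelial miRNAs had ratios at or below 0. Of 13 on the array 12 were bright, with 10 below 0 and a median of -0.31 (-0.27 to -0.15 in other scalings). All 122 had -0.20 (-0.20 to -0.09 in other scalings). In Tlr3-/- the list's median was -0.01 and that of all 122 was -0.03. Summed over the 13 on the array, raw intensity was 17328 at 0 hr and 16822 at 6 hr. Within the list are the 5 bright members of the miR-200 family, which hold cells in the epithelial state by repressing Zeb1 and Zeb2. These 5 had a median of -0.38. Summed over the 9 probes listed for that family on the array, raw intensity was 3149 and 2898. miR-375, a miRNA of endocrine and secretory cells, read 83.4 and 74.8, miR-148a read 117 and 104, and miR-31 read 246 and 228. Each of these was lower by less than 1.5-fold.

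Smooth muscle and stromal miRNAs had 10 bright members of 15 on the array, with a median of -0.18, against -0.20 for all 122. Of the 10, 8 lay below 0, the exceptions being miR-195 and miR-125b-5p (0.09). Summed over the 15 on the array, raw intensity was 3866 and 3908. miR-145, made from the same transcript as miR-143, read 1234 and 1321, with -0.32 after quantile normalization and -0.10 to 0.07 in the other scalings. The endothelial miR-126-3p read 329 and 332 (-0.16).

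Leukocyte miRNAs were dim, with 3 bright members of 10. miR-142-5p, present throughout the blood lineages, read 112 and 89.1 (-0.37), the myeloid miR-223 read 99.9 and 88.5 (-0.22), and miR-146a, an NF-kB target that dampens Toll-like receptor signalling, read 87.0 and 73.9 (-0.28). Their 3 ratios were below 0 in Tlr3-/- intestine too (median -0.22, against -0.03 for all 122), with miR-142-5p at 151 and 82.6. Summed over the 10 listed probes, raw intensity was 625 and 556 in Tlr3+/+, and 734 and 646 in Tlr3-/-. The 4 bright members of the Toll-like receptor and NF-kB list were miR-21, miR-146a, miR-223 and let-7i. All 4 lay below 0, as did 82 of the 122 members, and their median was -0.25, against -0.20 for all 122. None of the 8 of its miRNAs detected on both arrays was 2-fold higher in Tlr3+/+, where 1.76% of all 680 detected miRNAs were.

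The other families of 3 or more equal seeds lay below 0 throughout. The 8 let-7 members, which restrain growth genes such as Hmga2 and Lin28, all lay between -0.54 and -0.20 with a median of -0.28. The 6 members with the seed of miR-17 (miR-17, miR-20a, miR-20b, miR-93, miR-106a and miR-106b), linked to proliferation, lay between -0.46 and -0.16 (median -0.31). The miR-29 trio, which represses collagens, had a median of -0.30, and the 5 miR-30 members of the list one of -0.18. These family medians were below 0 in all 5 other scalings, as were those of the miR-23/27/24 clusters (5 members, -0.20), miR-26 (2, -0.19) and the pair miR-103 and miR-107 (-0.24). They are close to the median of all 122, and in Tlr3-/- intestine the let-7 members had a median of -0.06 and a range from -0.35 to 0.32.

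Most members with higher signal at 6 hr were rich in G and C, a property that the choice of miRNAs did not use. Mature sequences could be matched for 102 of the 122, all 12 of the 2-fold set among them. Their median share of G and C was 71.8% (36.4 to 100%), against 45.5% (31.8 to 85%) in the other 90 and 43.2% in 8 of the 12 lowest. By base composition, the 43 members from 40% up to 50% had a median ratio of -0.27 and 0 of them reached 2-fold. The 15 from 60% up to 70% had a median of 0.35 with 3 at 2-fold, and the 13 at 70% or above one of 1.03 with 7. miR-451 (36.4%) and miR-195 (42.9%) were the high ratios among AU-rich sequences.

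Over the 102 members, Spearman's rho between GC share and log2 ratio was 0.62 (Pearson's r 0.71) in Tlr3+/+ and 0.49 in Tlr3-/-. It is a description of points that share 2 arrays, a labelling reaction and a hybridization. For the 87 bright on both Tlr3+/+ arrays rho was 0.61, and across the other scalings and background corrections it lay between 0.54 and 0.62. In 166 detected miRNAs below the brightness limit it was 0.23. Between the 2 non-treated pools, Tlr3-/- over Tlr3+/+, rho was 0.14, and between the 2 irradiated pools it was -0.60. Relative to the other bright probes, GC-rich ones thus tended to be highest on the irradiated Tlr3+/+ array. The part of base composition in labelling or hybridization was not tested.

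**Figure D4:**
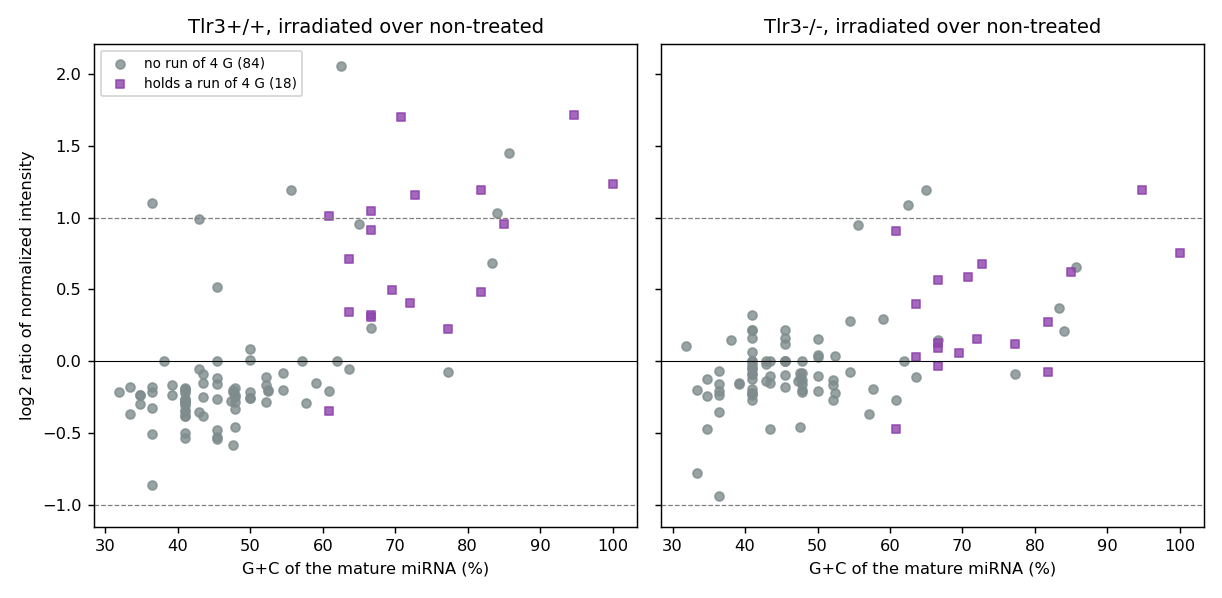
Log2 ratio of irradiated over non-treated intestine (vertical) against the G and C content of the mature miRNA (horizontal, %) for the 102 members with a sequence, in Tlr3+/+ (left) and Tlr3-/- (right); purple squares hold a run of 4 G, dashed lines mark 2-fold. High ratios gather at the GC-rich end in both panels, with 7 of 13 members of 70% or more at 2-fold on the left.

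A run of 4 G (GGGG, searched in the mature strand and counted once per miRNA) was in 7 of the 12, in 11 of the other 90, and in 188 of the 1679 mature sequences of the table (11.2%). Over all 102 members with a sequence, 17 of the 29 with a ratio above 0 held it and 1 of the other 73, miR-128-2*. Among the 87 of these that were bright on both arrays, 11 of the 18 with a ratio above 0 held it and 0 of the other 69. The run was in 7 of the 10 that were bright on both arrays and at least 2-fold higher. Naming differed as well: 5 of the 12 were star strands against 10 of the other 110, and 8 of the 12 had numbers of 4 digits against 23 of 110. The shares of such names over all detected miRNAs were not counted. miR-92b* and miR-451 show that GGGG was not shared by all, since neither sequence holds it. A list of miR-762 and 8 late-numbered names, chosen from earlier results of these arrays and so no independent evidence, had a median of 1.19 in Tlr3+/+ and 0.76 in Tlr3-/-, with every one above 0 in both.

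Set beside the other genotype, the high ratios of Tlr3+/+ intestine were found at smaller size. Of the 12, 11 had a ratio above 0 in Tlr3-/-, with miR-451 the exception, and the median was 0.67 against 1.19. Each of the 12 was larger in Tlr3+/+, but they were chosen by their Tlr3+/+ value, and the difference between genotypes was not tested. By the same limits 114 probes were bright in the Tlr3-/- pair, 113 of them shared with the 122. In Tlr3-/- intestine 3 of the 122 were at least 2-fold higher (0.48% of 625 detected miRNAs were), namely miR-92b*, miR-2861 and miR-3473b, the first 2 in both genotypes, and 0 of the 122 was 2-fold lower (0.16% of the detected were). All 10 members at least 1.5-fold higher in Tlr3-/- (1.6% of those detected were) belonged to the 20 of Tlr3+/+.

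The levels of the 12 were also compared between genotypes at each time. For the 12 the normalized signal of non-treated Tlr3-/- over non-treated Tlr3+/+ intestine had a median of 0.19 on the log2 scale, with 9 of 12 above 0. For irradiated Tlr3-/- over irradiated Tlr3+/+ it was -0.36, with 0 of 12 above 0. These medians use the arrays that chose the 12. That choice favours a low non-treated and a high irradiated Tlr3+/+ value, and so the direction of both medians. The 2 spike controls, RNAs added in the laboratory, averaged 3491 and 3061 on the non-treated Tlr3+/+ array and 3652 and 3133 on the irradiated one, a log2 ratio of 0.04.

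**Figure D5:**
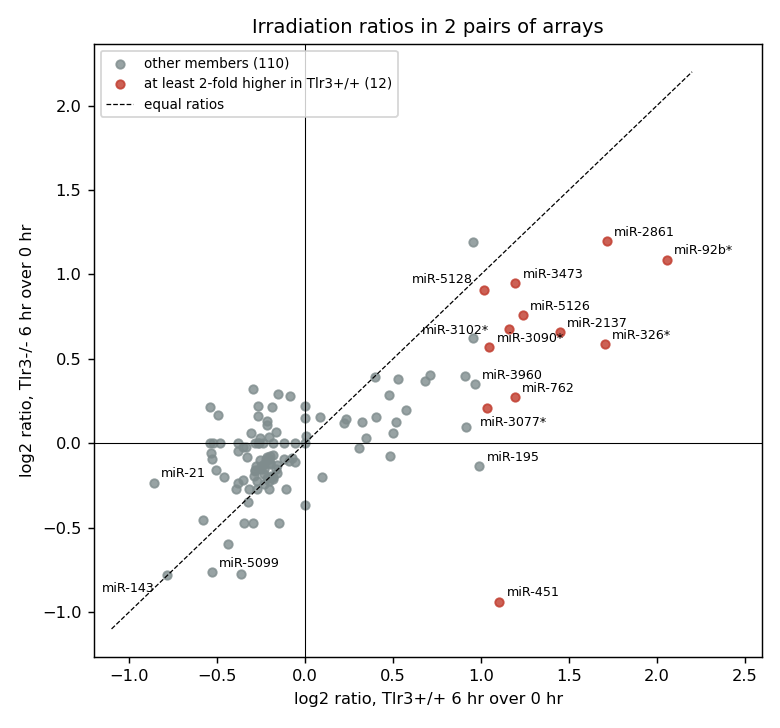
Log2 ratio of 6 hr over 0 hr in Tlr3+/+ (horizontal) and Tlr3-/- (vertical) intestine for the 122 members, 1 pair of arrays per axis; red points are at least 2-fold higher in Tlr3+/+ and the dashed line marks equal ratios. All 12 red points lie below the line, 11 of them above 0 on the vertical axis, and miR-451 (1.10 and -0.94) lies apart.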

How the data were processed

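RNA was prepared from small intestine (miRNeasy, Qiagen) and labelled with the dye Hy5 (Exiqon), per the labels' protocols, 1 pool of 3 mice per array and 4 arrays in all. For the scanner, its software and the array's maker, the sources used here give no name. The authors deposited, per the file headers, for each of 3136 spots the raw intensity, the same after background subtraction, and an intensity after global normalization. Checked against the raw values, the first derived column subtracts 1 constant per array, the second multiplies by 1 factor, and the series' value table equals it within 0.005.

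Raw intensities were corrected by normexp with blank spots as negative controls (nec, offset 50, limma 3.58.1, R 4.3.3), quantile-normalized over all miRNA probes of the 4 arrays and taken to log2. Detection was a raw intensity above the mean of the blanks (5% trimmed at each end) plus 2 SD. Other scalings were to the median of detected probes, the median of bright probes, the 75th percentile, cyclic loess and the spike controls. Further alternatives were quantile normalization of the Tlr3+/+ pair alone, no background correction, blank subtraction, an offset of 16 and the authors' values. On simulated data, changes of 2-fold and 4-fold were counted at a limit of 1.5-fold, and unchanged probes at 2-fold. How well a 2-fold change is recovered at the 2-fold limit was not tested. With 1 array per group no test was made. Tables were handled in Python 3.11.15.

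Sequences came from RefSeq's GRCm38.p6 table. Old array names were paired with current arm names from general knowledge of renaming, which was not checked against probe sequences, and 20 members without an entry are named only. GC shares of non-members use exact name matches. Named miRNAs are the 12 highest and 12 lowest ratios, the 10 brightest, those at the limit, list members and families of 3 or more equal seeds. miRNAs outside that rule complete a count or were chosen after their values were seen. The members and lists were chosen with earlier results of these data known.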

Additional observations from a re-analysis of the deposited data

Results flagged for a closer look

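miR-451 had opposite directions in the 2 genotypes, with a log2 ratio of 1.10 in Tlr3+/+ and -0.94 in Tlr3-/- intestine. miR-195 had 0.99 in Tlr3+/+ and -0.14 in Tlr3-/-, and the sign of the latter is unsettled, with -0.06 to 0.15 in the other scalings and raw intensities of 143 and 146. Each rests on 1 array per group, and the difference between genotypes was not tested.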

How the results depend on the processing

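The count of 12 bright miRNAs at least 2-fold higher in Tlr3+/+ stayed between 10 and 17 in the other scalings and brightness limits, with an offset of 16 and without background correction, but was 20 with the authors' values, 21 after blank subtraction, 20 at a limit of 1.5-fold and 3 at 3-fold. The count of lower ones was 0 except at 1.5-fold, where it was 2. In Tlr3-/- the count of 3 became 5 with scaling to the detected median or the 75th percentile, with an offset of 16 and without background correction, 6 with the authors' values and after blank subtraction, 7 with the spike controls, 10 at 1.5-fold and 0 at 3-fold, and stayed at 3 or 4 otherwise. The median ratio of the members lay between -0.31 and -0.09 throughout. Scaling to the bright probes' median, the authors' values and blank subtraction shifted the median of all detected miRNAs to -0.13, -0.15 and -0.12. Of 280 values of 28 named members under alternatives, 122 moved by more than the spread of repeated spots and 0 reversed a called direction. A change of sign in a ratio short of 2-fold was counted as moved. One such was miR-720, at -0.52 and at 0.15 with scaling to the detected median. The cause of the moves was not tested. No paired analysis was possible because the Tlr3+/+ comparison had 1 array on each side.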
